A study of Mus musculus with 21 samples.

Results

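Spiral ganglion neurons (SGNs), the afferent neurons that carry signals from cochlear hair cells (HCs) to the brainstem, were compared between postnatal day 1 (P1) and P8 by bulk RNA-Seq, with 3 libraries per age. A gene was taken as expressed when it had over 1 count in 1000000 (CPM) in all 3 libraries of either age, which held for 13944 of the 52550 genes in the table. Of these, 12030 reached the limit at both ages, 1191 at P1 alone and 723 at P8 alone. Both ages were untreated C57BL/6 mice that carried 1 copy of ShhCre, which makes Cre from the Shh locus, and 1 copy of the Ai9 reporter at Rosa26, in which a floxed stop precedes tdTomato, so that Cre turns on this red fluorescent protein in SGNs. Red cells were picked by hand from digested cochleae, 195, 140 and 150 cells for the P1 libraries and 140, 102 and 108 cells for the P8 libraries, and their RNA was amplified before library construction. Each sample was kept for sequencing only if qPCR showed enrichment of a neuronal gene and depletion of the glial gene Sox10 and the HC gene Myo6, so these genes took part in the choice of samples. The labels do not say whether libraries of one age came from separate animals, so the p-values measure the spread between these libraries, which may be technical. The series holds 21 libraries, and the others served as reference. They are SGNs of the same genotype at E15.5, P14 and P30, cochlear glial cells at P8 from mice with the tamoxifen-induced vGlut3-iCreER driver, and cochlear and vestibular HCs at P12 from mice with the Atoh1-CreER driver, also induced by tamoxifen. The HCs were sorted according to the methods and picked by hand according to the labels. Each of these groups had 3 libraries.

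During the first postnatal week the cochlea of the mouse cannot yet hear airborne sound. SGNs fire spontaneous bursts driven by HCs, their peripheral axons refine their contacts, Schwann and satellite glia begin to myelinate them, and the neurons start to acquire the channels and release machinery that later allow fast and precisely timed firing. Markers of the other cells that can be picked along with a neuron are therefore given beside the neuronal genes.

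The 6 libraries held between 21915914 and 35591662 counts on genes, and a count of 0 allowed up to 3 counts, or 0.0843 to 0.137 CPM. This limit covers counting error only, since the amplified reads carry no molecular identifiers. Levels are given as normalised RPKM, the count per kilobase of gene and per 1000000 counts after scaling of the libraries by the trimmed mean of M-values (TMM). TPM was not used for levels because a single gene of 57 bases, Gm23935, took between 12.6% and 54.8% of the TPM sum of these libraries. Replicate 1 of each age held RNA of other tissues at levels above the other 4 libraries. Summed over 10 endothelial markers, the level was 57.6 at P1 and 13.4 at P8 in replicate 1 against at most 0.943 in the others. Over 7 blood cell markers it was 19.8 and 23.3 against at most 0.803, and over 13 connective tissue markers it was 116 and 139.8 against at most 22.5.

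Between P1 and P8, 642 of the 13944 genes rose and 471 fell, where a gene was called when its limma-voom Benjamini-Hochberg (BH) adjusted p was under 0.05 and its change exceeded 2-fold. These counts are 4.6% and 3.38% of the genes, together 7.98%, and the same shares serve below as the background for each gene group. The median change was 3.06-fold among the genes that rose and 3.25-fold among those that fell, and 231 genes rose and 180 fell by more than 4-fold. Genes present at both ages made up 548 of the rises and 375 of the falls, whereas 94 rises were of genes that reached 1 CPM at P8 alone and 96 falls of genes that reached it at P1 alone. The CPM limit itself largely fixes the direction of these last sets. Of the 723 genes of P8 alone 0 fell, and of the 1191 of P1 alone 0 rose. They are kept in the counts and shares given here and below. All 3 P8 libraries lay above all 3 P1 libraries for 635 of the 642 genes that rose and below them for 469 of the 471 that fell. Among all 13944 genes, 18% were higher in this sense at P8 and 16.5% lower. The fold changes behind the calls come from the same libraries, so the lack of overlap among called genes is largely given by their choice. The split depends on the scaling, since library size in place of TMM shifted the median log2 fold change of all genes to -0.22 and gave 418 rises and 755 falls. Leaving out replicate 1 of both ages gave 288 rises and 190 falls, of which 274 and 180 were among the 642 and 471.

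**Figure D1:**
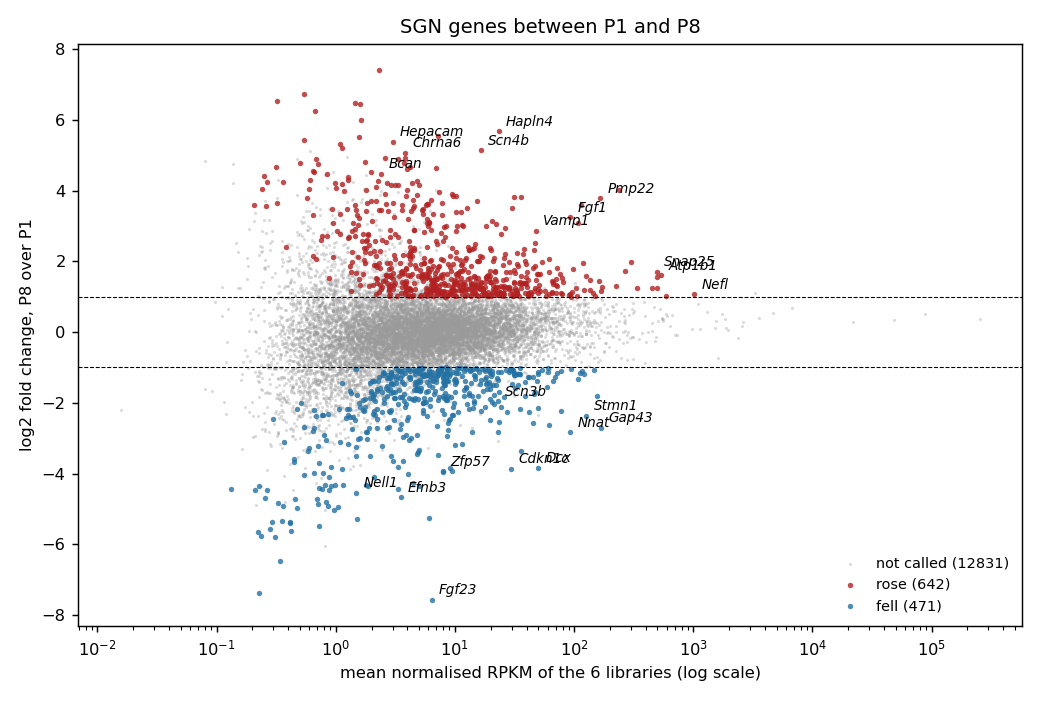
Log2 fold change from P1 to P8 (vertical axis) against the mean normalised RPKM of the 6 libraries (horizontal axis, log scale) for the 13944 genes, with the 642 genes that rose in red, the 471 that fell in blue and the others in grey. Dashed lines mark 2-fold. Among the labelled genes Hapln4 and Scn4b lie at 5.67 and 5.14, and Fgf23 and Efnb3 at -7.56 and -4.67.

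Among called genes over 10 CPM in all libraries of one age and without overlap between the ages, those with the largest rises included genes of the perineuronal matrix, a sodium channel and a nicotinic receptor. Hapln4, a link protein that binds hyaluronan and proteoglycans at nodes and synapses, had 0.9, 1.02 and 0.749 at P1 and 38.9, 49.4 and 49.1 at P8 (log2 FC 5.67, SE 0.43, adjusted p = 1.2e-06). These and all levels below are in normalised RPKM, and log2 fold changes (log2 FC) are those of the limma-voom fit with their standard error (SE). For Hapln4 the P8 libraries lay far above every P1 library. Bcan, which encodes the matrix proteoglycan brevican, had 0.127, 0.244 and 0.283 at P1 and 3.69, 6.06 and 4.07 at P8 (log2 FC 4.47, SE 0.80, adjusted p = 0.0017). Scn4b, a sodium channel beta subunit, had 0.847, 1.06 and 0.804 at P1 and 24.9, 35.7 and 35.7 at P8 (log2 FC 5.14, SE 0.45, adjusted p = 4.8e-06). Chrna6 and Chrnb3, subunits that assemble into one nicotinic acetylcholine receptor, both rose, with log2 fold changes of 5.07 and 4.78. Chrna6 had 0.138, 0.0273 and 1.64 at P1 and 4.13, 7.34 and 9.49 at P8, so that P1 replicate 3 stood well above the other P1 libraries, and Chrnb3, with 0.307, 0.0374 and 1.29 at P1 and 5.62, 8.21 and 7.18 at P8, was likewise highest at P1 in replicate 3. Ankrd34c, Plekhd1, Mapkapk3 and Ccbe1, which encodes a secreted collagen- and calcium-binding protein, were also among the 12 largest rises and lower in P8 glia than in P8 SGNs, with log2 fold changes from 4.28 (Plekhd1) to 4.93 (Ccbe1) and adjusted p-values from 1.6e-04 to 0.0082. The remaining 3 of these 12, Hepacam, Gpr37l1 and Slc9a3, had higher mean levels in P8 glia (21.3 ± 10.7, 78.2 ± 5.37 and 10.8 ± 9.73, mean ± SD, n = 3) than in P8 SGNs (5.79 ± 1.16, 8.1 ± 2.32 and 7.43 ± 2.3). For Slc9a3 this difference lies within the spread between libraries. Whether their rise came from neurons or from glial RNA was not tested.

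The largest falls included those of a growth factor and a guidance ligand. Fgf23, a hormone-like fibroblast growth factor, had 14.2, 17.4 and 6.53 at P1 and 0.102, 0 and 0.268 at P8, with 897, 793 and 278 counts at P1 and 6, 0 and 12 counts at P8 (log2 FC -7.56, adjusted p = 0.0038). With so few counts at P8 the fitted fold change depends on the prior count and is no bound. Its mean was 0.93 ± 1.52 at E15.5. Efnb3, a ligand of Eph receptors, had 7.7, 5.99 and 6.49 at P1 and 0.291, 0.251 and 0.242 at P8 (log2 FC -4.67, SE 0.67, adjusted p = 2.8e-04). Dcx, the microtubule-binding protein doublecortin of migrating and growing neurons, was not among the 12 largest falls but fell with the smallest adjusted p of all genes, from 90.9, 93.8 and 95 at P1 to 6.94, 6.55 and 6.01 at P8 (log2 FC -3.84, SE 0.18, adjusted p = 2.9e-09). The replicates of Dcx lay close together within each age. Zfp57, an imprinting regulator, had 15.4, 15.1 and 13.7 at P1 and 1.03, 0.633 and 1.41 at P8 (log2 FC -3.94, SE 0.49, adjusted p = 8.6e-05). Cdkn1c, an imprinted cell cycle inhibitor, had 64.7, 49.9 and 51.1 at P1 and 5.16, 4.63 and 2.05 at P8 (log2 FC -3.86, SE 0.49, adjusted p = 1.1e-04), although 30.7% of the exon length of Cdkn1c overlapped another gene. Gfra2, the receptor of the trophic factor neurturin, had 20.1, 23 and 9.63 at P1 and 1.28, 0.519 and 2.15 at P8 (log2 FC -3.92, SE 0.93, adjusted p = 0.012). With Fgf23, Efnb3, Zfp57, Cdkn1c and Gfra2, the genes Nell1, Igfbpl1, Cdhr1, Cpne5, Stum, Rem2 and Prr36 made up the 12 largest falls, with log2 fold changes between -4.54 (Nell1) and -3.92 (Prr36).

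**Figure D2:**
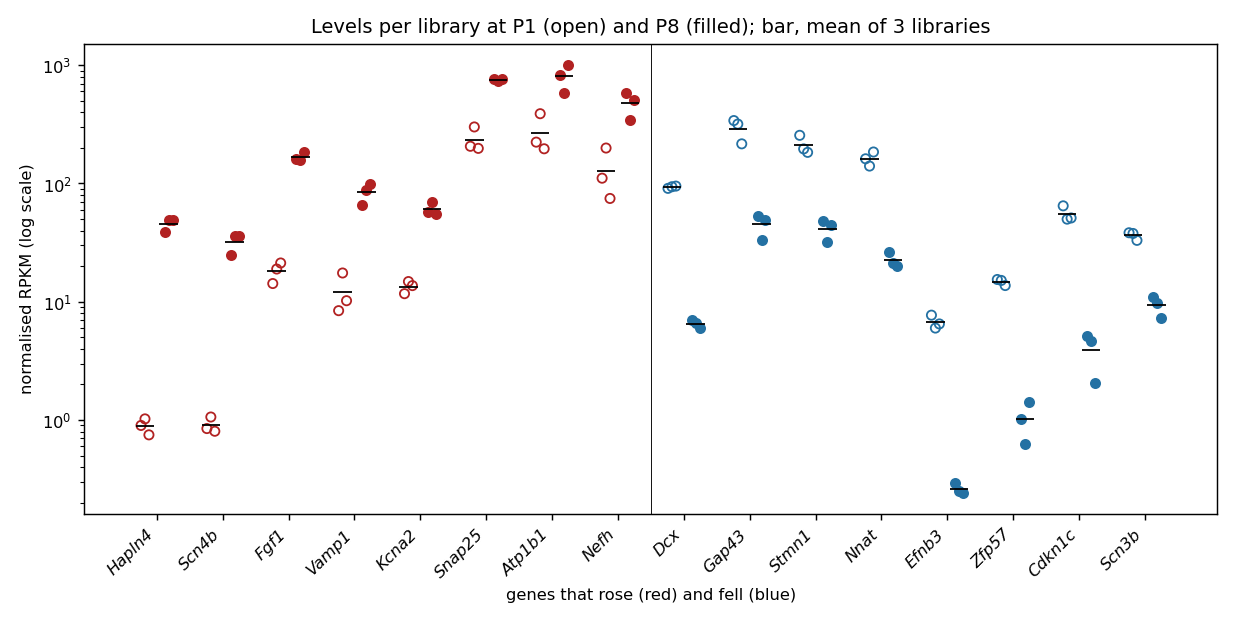
Normalised RPKM (vertical axis, log scale) of 8 genes that rose and 8 that fell, in each P1 library (open circles) and each P8 library (filled circles), with a bar at the mean of each age. In none of the 16 genes do the ages overlap, which is largely given by their choice among called genes. The level of Dcx falls from between 90.9 and 95 to between 6.01 and 6.94, and that of Snap25 rises from between 198 and 300.5 to between 737 and 760.2.

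By absolute level, ranked by the difference in mean TPM, the genes that gained most included those of the axonal cytoskeleton, the sodium pump and the release machinery. The neurofilament gene Nefl had 652, 705 and 613 at P1 and 1212, 1470.5 and 1466 at P8 (log2 FC 1.07, SE 0.13, adjusted p = 8.6e-05), but 32.8% of its exon length overlapped another gene. Its heavy partner Nefh had 111, 199 and 74.7 at P1 and 579, 342 and 508 at P8 (log2 FC 1.98, SE 0.27, adjusted p = 1.8e-04). Nefm, the third member of the triplet, had 627, 551 and 338 at P1 and 714, 538 and 583 at P8 (adjusted p = 0.28). Atp1b1, a beta subunit of the sodium-potassium pump, had 224, 389 and 196 at P1 and 833, 583 and 996 at P8 (log2 FC 1.61, SE 0.25, adjusted p = 5.6e-04). None of 16 pump and chloride transporter genes fell. Snap25, the plasma membrane SNARE, had 206, 300.5 and 198 at P1 and 758, 737 and 760.2 at P8 (log2 FC 1.71, SE 0.13, adjusted p = 1.2e-06). Cplx1 (complexin) had 199.9, 334 and 279.5 at P1 and 532, 644 and 696 at P8. The calcium sensor Vsnl1 had 230.0, 349.6 and 198 at P1 and 809, 639 and 782 at P8. Among the genes that lost most were Gap43, Tubb2b, Stmn1, Dpysl3 and Tmsb10, which act in growth cones or on tubulin and actin, together with the imprinted gene Nnat, Aplp1, Eid1 and Gm21541. Ndrg4, with 239.6, 359 and 285 at P1 and 544, 745 and 789 at P8, was also among the 10 largest gains, and so was the myelin gene Pmp22, which was in the 10 by TPM and not by normalised RPKM and is described with the glial genes. Library size in place of TMM ended the call of Nefl, whose change lies close to 2-fold.

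Of 10 voltage-gated sodium channel subunits, 5 rose and 4 fell. The pore-forming subunits Scn1a (Nav1.1) and Scn8a (Nav1.6), which carry current at mature axon initial segments and nodes, both rose. Scn1a had 11.1, 16.4 and 18.6 at P1 and 35.9, 59 and 49.2 at P8 (log2 FC 1.67, SE 0.22, adjusted p = 1.5e-04). Scn8a had 7.44, 11.4 and 11.6 at P1 and 26, 28.9 and 33.8 at P8 (log2 FC 1.58, SE 0.21, adjusted p = 1.5e-04). The beta subunit Scn2b rose as well, with 9.15, 13.2 and 10.2 at P1 and 44.6, 35.6 and 38.8 at P8. The 4 genes that fell were Scn2a, Scn3a, Scn9a and the beta subunit Scn3b. Scn3a (Nav1.3) had 10.9, 13.4 and 16.2 at P1 and 3.08, 3.95 and 4.42 at P8 (log2 FC -1.81, SE 0.27, adjusted p = 4.2e-04). Scn3b had 38.3, 37.8 and 33 at P1 and 11, 9.76 and 7.35 at P8 (log2 FC -1.96, SE 0.39, adjusted p = 0.0039). At P8 the level of Scn8a exceeded that of Scn3a in every library, whereas at P1 their levels overlapped. Scn11a, the member that was not called, had an adjusted p of 0.064 and a log2 fold change of -4.13. The median log2 fold change over the 10 genes was 0.21.

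Of 12 Kv1 and Kv3 channel genes and Kv1 beta subunits, 6 rose and 1 fell, with a median log2 fold change of 1.23 against 0.0014 over all genes. Kcna2 (Kv1.2), which limits repetitive firing, had 11.7, 14.8 and 13.7 at P1 and 57.7, 69.3 and 55.1 at P8 (log2 FC 2.19, SE 0.21, adjusted p = 8.5e-06). Its partner Kcna1 (Kv1.1) had 15.7, 25.5 and 20.3 at P1 and 56.8, 80.8 and 74.4 at P8 (log2 FC 1.81, SE 0.21, adjusted p = 5.9e-05). P8 glia held both as well, with 55 ± 16.2 for Kcna2 and 336 ± 33.3 for Kcna1 (mean ± SD, n = 3), and the part of glial RNA in their rise was not tested. The beta subunit Kcnab2, at 2.2 ± 1.38 in glia, had 11.9, 19.3 and 13.6 at P1 and 48, 54.8 and 56.4 at P8 (log2 FC 1.87, SE 0.21, adjusted p = 3.6e-05). Kcnc1 (Kv3.1), which repolarizes the membrane within a spike, had 15.452, 20.4 and 15.3 at P1 and 37.5, 40.9 and 39.5 at P8 (log2 FC 1.22, SE 0.16, adjusted p = 1.4e-04). Kcna6 was the single member to fall (-1.05 on the log2 scale), and 39.6% of its exon length overlapped another gene. Kcna6 was not called by edgeR's test, without P1 replicate 3, without P8 replicate 2 or without replicate 1 of both ages.

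Of 10 KCNQ and HCN channels, 3 rose, Kcnq5 and Hcn2 among them, and Hcn3 and Kcnq3 fell. Hcn3, a pacemaker channel, had 18.7, 15.3 and 14.7 at P1 and 7.59, 6.14 and 6.87 at P8 (log2 FC -1.25, SE 0.29, adjusted p = 0.0097). Kcnq5 had 0.254, 0.3 and 0.643 at P1 and 6.77, 6.57 and 5.39 at P8. Kcnq3 had 32.2, 47.4 and 36.8 at P1 and 18.4, 22.1 and 15.499 at P8. The log2 fold changes were 4.14 for Kcnq5 and -1.03 for Kcnq3. Kcnq5 lost its call with edgeR's test and without P1 replicate 1, 2 or 3. Hcn2 lost it without P1 replicate 3 and without P8 replicate 2 or 3, and without P1 replicate 3 the group had 1 rise. Hcn3 lost its call without P1 replicate 1, and Kcnq3 without P1 replicate 2, without P8 replicate 3 or without the low-count filter. In the group of other voltage-gated potassium channels, 6 of 22 genes rose and 2 fell. The rises included 4 Kv4-binding KChIP genes (Kcnip1, Kcnip2, Kcnip3 and Kcnip4) with log2 fold changes from 1.20 to 1.76. The quasi-likelihood test of edgeR called 1 of the 6 rises, Kcnb2, and neither fall. Library size scaling gave 3 rises and 4 falls, and leaving out P1 replicate 1 or P8 replicate 3 gave 1 rise and 1 fall. Of 9 inward rectifier and two-pore channel genes, Kcnk1 (15, 25.2 and 36.9 at P1 and 83.4, 116 and 96.2 at P8) and Kcnk9 (20.7, 31.2 and 31.8 at P1 and 43.4, 78.7 and 53.2 at P8) rose and none fell, and Kcnk9 was not called by edgeR's test, DESeq2 or library size scaling.

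**Figure D3:**
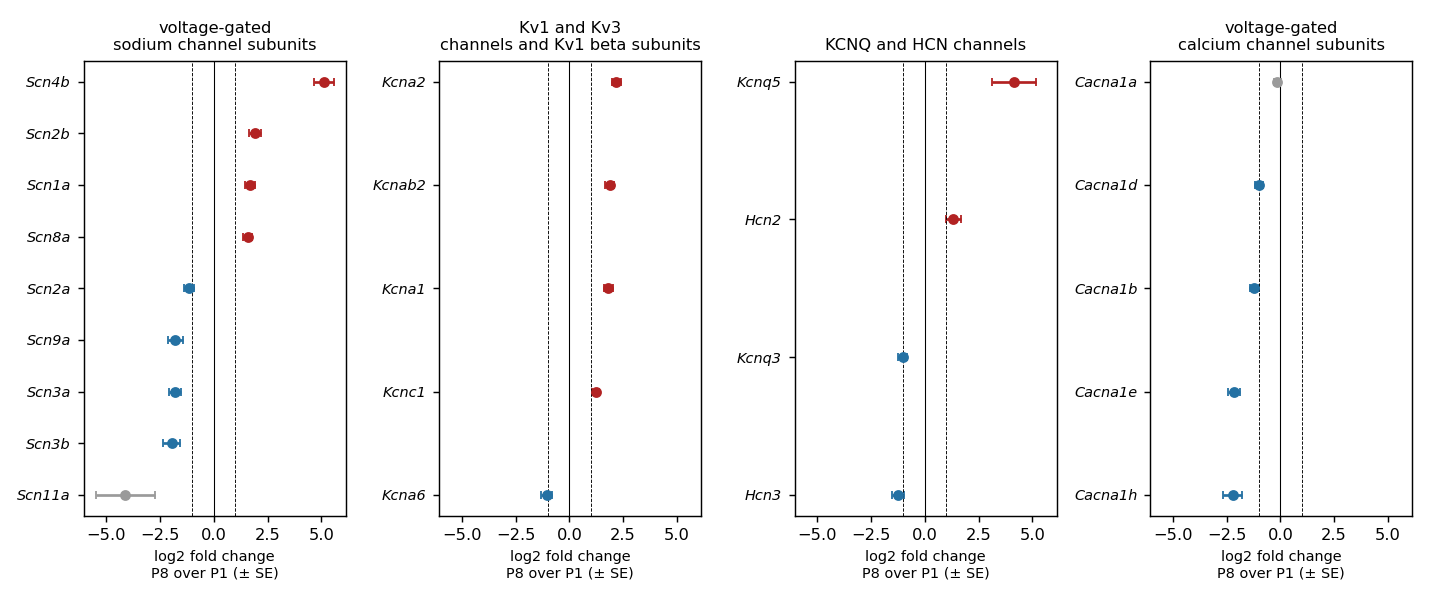
Log2 fold change from P1 to P8 with its standard error (horizontal axis) for the genes of 4 ion channel groups that are named in the text, with genes that rose in red, genes that fell in blue and genes not called in grey. Dashed lines mark 2-fold. Among sodium channels Scn1a and Scn8a lie at 1.67 and 1.58 and Scn3a and Scn3b at -1.81 and -1.96, and no calcium channel subunit drawn lies past the upper line.

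Of 15 voltage-gated calcium channel subunits, 5 fell and none rose, while edgeR's test and DESeq2 called 3 of these falls, Cacna1b, Cacna1d and Cacna1e. Without P1 replicate 3 there were 3 falls and 1 rise, 4 falls and 1 rise without P8 replicate 1, and without replicate 1 of both ages 3 falls and 1 rise. The T-type channel Cacna1h had 15.8, 9.94 and 12.7 at P1 and 3.13, 2.66 and 2.45 at P8 (log2 FC -2.21, SE 0.44, adjusted p = 0.0041). The R-type channel Cacna1e had 24.1, 20.6 and 24 at P1 and 4.03, 6.56 and 5.18 at P8 (log2 FC -2.15, SE 0.29, adjusted p = 1.6e-04). The N-type channel Cacna1b had 20.4, 17.7 and 23.1 at P1 and 8.78, 7.93 and 9.71 at P8. Cacna1d (Cav1.3) lay at the 2-fold limit (log2 FC -1.005, SE 0.20, adjusted p = 0.0033). Cacna1a, the P/Q-type channel of mature terminals, had 15.7, 13.9 and 17.3 at P1 and 12.7, 14.8 and 15 at P8 (adjusted p = 0.64). Of 7 calcium- and sodium-activated potassium channel genes, Kcnn1, Kcnmb2 and Kcnt1 fell and none rose. Kcnt1 (Slack) had 17.4, 20.4 and 16.2 at P1 and 6.54, 8.34 and 10.8 at P8 (log2 FC -1.11, SE 0.26, adjusted p = 0.011). Both edgeR's test and leaving out P8 replicate 1 left 1 of the 3 falls, Kcnmb2. Without replicate 1 of both ages none of the 3 was called, while Kcnt1 kept its direction in all alternatives.

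Among 11 expressed matrix genes, Hapln4, Bcan and Hapln1 rose, and Tnc and Has3, which make tenascin-C and hyaluronan, fell. The median log2 fold change over these 11 genes was -0.67. Hapln1 had 4.44, 10.6 and 4.8 at P1 and 38.7, 51.5 and 47.9 at P8 (log2 FC 2.94, SE 0.82, adjusted p = 0.029). Has3 had 7.77, 6.56 and 8.83 at P1 and 3.75, 3.27 and 3.11 at P8 (log2 FC -1.17, SE 0.36, adjusted p = 0.046). Has3 lost its call when any 1 library was left out and without the low-count filter, and Tnc lost it with edgeR's test. Hapln1 lost its call with edgeR's test, with DESeq2 and without any 1 library other than P8 replicate 1. Of 17 genes of the node of Ranvier and axon initial segment, Cntnap1 and Gldn rose and Trim46 fell. Cntnap1 (Caspr), the axonal part of the paranodal junction, had 8.01, 16.7 and 16.3 at P1 and 29.5, 30.5 and 30.8 at P8 (log2 FC 1.26, SE 0.27, adjusted p = 0.0064). It lost its call with edgeR's test, without P1 replicate 1 and without replicate 1 of both ages, which left Gldn as the single rise. Its axonal partner Cntn1 passed the adjusted p but changed less than 2-fold (log2 FC 0.70, SE 0.15, adjusted p = 0.006), and so did the neurofascin gene Nfasc (log2 FC 0.50, SE 0.14, adjusted p = 0.033). Gldn (gliomedin), a glial ligand that gathers nodal proteins, had 6.81, 13.8 and 8.22 at P1 and 34.6, 57.6 and 35.6 at P8 in the SGN libraries and 9.83 ± 1.38 in P8 glia (mean ± SD, n = 3), and was higher in each P8 than in each P1 library.

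Genes of vesicle release rose more often than they fell, with 10 rises and 4 falls among 36 expressed members and a median log2 fold change of 0.55. Without replicate 1 of both ages 7 of these rises and 1 of the falls, Cplx2, were called. With edgeR's test 7 of the rises and 3 of the falls were called, and Slc17a7, Unc13c, Sv2c and Unc13b were not. Vamp1, a vesicle SNARE of fast synapses, had 8.41, 17.5 and 10.2 at P1 and 65.1, 87.7 and 99.2 at P8 (log2 FC 2.87, SE 0.27, adjusted p = 9.1e-06). Vamp2 had 99.3, 104 and 104 at P1 and 113, 81.4 and 98.5 at P8 (adjusted p = 0.9). Nsf, the ATPase that recycles SNAREs, had 17.2, 24 and 19.9 at P1 and 66, 72.4 and 80.1 at P8 (log2 FC 1.86, SE 0.17, adjusted p = 6.6e-06). The vesicular glutamate transporter Slc17a6 had 22.9, 38.5 and 36.3 at P1 and 57.8, 77.5 and 75.7 at P8 (log2 FC 1.16, SE 0.24, adjusted p = 0.0048). Slc17a7, another transporter of this family, had 19.8, 36.2 and 22.7 at P1 and 62.9, 65.5 and 80.8 at P8 (log2 FC 1.46, SE 0.28, adjusted p = 0.003). Cplx1 rose (1.24) while Cplx2 fell (27.4, 23.9 and 20.02 at P1 and 10.4, 8.35 and 9.42 at P8, log2 FC -1.34, SE 0.25, adjusted p = 0.0026), and Unc13c rose (3.20) while Unc13b fell (-2.02). Stx1a, a syntaxin, fell with 15.7, 7.02 and 6.41 at P1 and 1.57, 2.05 and 1.92 at P8 (log2 FC -2.36, SE 0.55, adjusted p = 0.011).

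Among 15 synaptotagmins, the calcium sensors of release, Syt2, Syt3 and Syt12 rose and Syt5, Syt16 and Syt17 fell. Syt2, the fast sensor of auditory synapses, had 16, 28.7 and 22.5 at P1 and 73.1, 91 and 92.5 at P8 (log2 FC 1.98, SE 0.23, adjusted p = 5.9e-05). Syt3 had 27.2, 31.4 and 25.6 at P1 and 47.4, 74.7 and 69.9 at P8 (log2 FC 1.16, SE 0.22, adjusted p = 0.0028). Syt5 had 13.1, 16.1 and 10.3 at P1 and 2.59, 0.699 and 0.818 at P8 (log2 FC -3.46, SE 0.79, adjusted p = 0.0095). Syt17 had 10.2, 17 and 18.3 at P1 and 2.66, 1.52 and 1.5 at P8 (log2 FC -2.95, SE 0.59, adjusted p = 0.0039). Syt1, with 5.88, 8.45 and 12.8 at P1 and 18.5, 17.2 and 18.8 at P8, was higher in every P8 library and did not pass the test (adjusted p = 0.14). The test of edgeR called the same 3 rises and none of the 3 falls.

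Of 23 expressed genes of ionotropic glutamate receptors and their auxiliary subunits, none rose and 6 fell, and edgeR's test called 1 of these falls, Shisa7. The falls were of the auxiliary subunits Shisa7, Shisa6, Cacng4 and Cnih2, the NMDA receptor subunit Grin2d and the kainate receptor subunit Grik5, with Shisa7 at 13.2, 14 and 13 at P1 and 3.24, 2.21 and 2.61 at P8 (log2 FC -2.32, SE 0.28, adjusted p = 7.9e-05). Leaving out P8 replicate 2, P8 replicate 3 or replicate 1 of both ages left 2 falls each, and the fit of the 6 libraries alone called 1 rise. The AMPA receptor subunits that define the SGN response to HC transmitter were not called. Gria2 had 6.38, 8.49 and 10.4 at P1 and 6.9, 9.94 and 9.23 at P8 (adjusted p = 0.89). Gria3 had 26.7, 27.6 and 28.8 at P1 and 19.3, 21 and 23 at P8 (adjusted p = 0.26). Gria4 had 24, 27.3 and 25.7 at P1 and 29.7, 38.5 and 36.5 at P8 (adjusted p = 0.24). Grin1, the obligatory NMDA receptor subunit, passed the adjusted p but changed less than 2-fold, with 10.5, 10.1 and 10.3 at P1 and 17.8, 18.4 and 20.4 at P8 (log2 FC 0.87, SE 0.15, adjusted p = 0.0016). Among 11 GABA-A and glycine receptor genes, Glrb, the beta subunit that anchors glycine receptors, rose with 5.85, 5.67 and 6.12 at P1 and 17.2, 30.8 and 25.9 at P8 (log2 FC 2.02, SE 0.27, adjusted p = 1.5e-04) and Gabrb1 fell with 1.52, 1.98 and 1.59 at P1 and 0.161, 0.135 and 0.0703 at P8 (log2 FC -3.81, SE 0.70, adjusted p = 0.002). The median log2 fold change over these 11 genes was -1.48. Gabra4 also fell, with 95, 75 and 48 counts at P1 and 12, 0 and 0 at P8. It was not called by edgeR's test or DESeq2, nor without P1 replicate 1 or 2 or P8 replicate 2 or 3. Of 16 nicotinic and P2X receptor genes, 4 rose, namely Chrna6, Chrnb3, P2rx6 and P2rx7, and none fell. The median log2 fold change over the 16 genes was -0.22. Library size scaling called 2 falls, and the 6 libraries alone, quality weights and a limit of 10 CPM called 1 each. P2rx7 was at 38.7 ± 13.6 in P8 glia against 2.76 ± 1.04 in P8 SGNs (mean ± SD, n = 3). Leaving out replicate 1 of both ages left 1 of these 4 calls, Chrnb3, and edgeR's test called 2, Chrnb3 and P2rx7, as did the fit without P1 replicate 1.

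Growth cone and axon outgrowth was the group with the most falls, 15 of 32 expressed genes, against 2 rises and a median log2 fold change of -0.91. Gap43, the growth-associated protein, had 340.2, 318 and 216 at P1 and 52.6, 33.4 and 49.2 at P8 (log2 FC -2.71, SE 0.35, adjusted p = 1.2e-04). Stmn1 (stathmin), which destabilizes microtubules, had 255, 196 and 183 at P1 and 47.8, 32 and 44.6 at P8 (log2 FC -2.37, SE 0.28, adjusted p = 5.9e-05). Marcks had 48.6, 31.7 and 39.8 at P1 and 8.68, 4.48 and 4.39 at P8 (log2 FC -2.81, SE 0.39, adjusted p = 1.9e-04). Its relative Marcksl1 had 89.7, 82.3 and 93.1 at P1 and 29.4, 31.3 and 30.4 at P8 (log2 FC -1.54, SE 0.23, adjusted p = 4.2e-04). The collapsin response mediators Crmp1, Dpysl3 and Dpysl5 fell with log2 fold changes of -1.41, -1.08 and -1.70, each with adjusted p-values of 0.0016 or less. The kinesin Kif21b had 52.7, 49 and 47.6 at P1 and 18.5, 16.4 and 17.9 at P8, with little spread (log2 FC -1.50, SE 0.14, adjusted p = 8.5e-06). The beta-tubulin Tubb2b had 199, 236 and 291 at P1 and 61.7, 69.2 and 72 at P8 (log2 FC -1.81, SE 0.23, adjusted p = 1.0e-04). In contrast the pan-neuronal tubulin Tubb3 had 189.7, 233 and 213 at P1 and 264, 210.2 and 327 at P8 (adjusted p = 0.36). The 2 rises were Cntn4 and Nrn1, which had 13.5, 14.2 and 15.1 at P1 and 47, 42.7 and 55.1 at P8 (log2 FC 1.76, SE 0.23, adjusted p = 1.5e-04). With edgeR's test 12 of these 15 falls were called, without the genes high in glia 13 falls were left, and the other settings gave between 14 and 17. Cntn4 was not called with library size scaling, without the low-count filter, with a limit of 10 CPM or without the genes high in glia. It was also not called without any 1 library other than P8 replicate 1, or without replicate 1 of both ages.

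Of 20 Eph receptor and ephrin genes, Efnb3, Epha8 and Epha10 fell and none rose, against 5 falls with library size scaling. Of 42 genes of the semaphorin, plexin, Slit and netrin families, 7 fell and 4 rose, against 7 rises with quality weights or the replicate block. The falls included the receptors Plxna3, Plxnb1, Dcc and Unc5b and the ligand Sema6a, which had 41.3, 32.7 and 23.3 at P1 and 9.2, 6.77 and 8.54 at P8 (log2 FC -1.98, SE 0.30, adjusted p = 4.2e-04). Dcc, a netrin receptor, had 8.01, 6.7 and 7.74 at P1 and 4.35, 2.16 and 3.58 at P8 (log2 FC -1.21, SE 0.31, adjusted p = 0.017). The rises were Sema3b, Sema5a, Sema7a and Slit3. Sema3b had 0.469, 1.44 and 1.14 at P1 and 10.1, 11.1 and 10.6 at P8 (log2 FC 3.62, SE 0.52, adjusted p = 2.8e-04), and in P8 glia its mean was 88.5 ± 33.8 (SD, n = 3). Among 38 cadherins and Ig adhesion genes, 5 fell and 2 rose, with Chl1 at 3.86, 3.48 and 4.02 at P1 and 0.326, 0.771 and 0.801 at P8 (log2 FC -2.72, SE 0.41, adjusted p = 4.2e-04), Cntn5 at 39.3, 42.8 and 52.4 at P1 and 5.5, 14.1 and 10.2 at P8 (log2 FC -2.27, SE 0.28, adjusted p = 7.8e-05) and Ncam1 at 65.5, 53.8 and 52.8 at P1 and 29, 24.2 and 19 at P8 (log2 FC -1.26, SE 0.17, adjusted p = 1.4e-04). Without P1 replicate 1 neither of the 2 rises of this group was called, and without replicate 1 of both ages 3 of the 5 falls were. Of 54 clustered protocadherin genes 2 fell and none rose, and neither fall was called without P1 or without P8 replicate 1. Of 27 synaptic adhesion genes Nrxn3 and Slitrk4 rose, neither of which was called by edgeR's test.

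To show the DNA in front of genes that moved in opposite directions, the 250 bases before an annotated start were taken from RefSeq on GRCm38.p6 for Scn4b and Syt2, which rose, and for Dcx, which fell. Capitals mark the match to any of 8 searched motifs, on either strand.
Scn4b, chr9:45138374-45138623, plus strand: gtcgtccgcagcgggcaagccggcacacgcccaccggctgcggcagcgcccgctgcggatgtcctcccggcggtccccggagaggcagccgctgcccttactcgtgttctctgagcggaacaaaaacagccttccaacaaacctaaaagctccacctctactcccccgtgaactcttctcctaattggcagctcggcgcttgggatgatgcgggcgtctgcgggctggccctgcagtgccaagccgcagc
Syt2, first of 2 starts, chr1:134646362-134646611, plus strand: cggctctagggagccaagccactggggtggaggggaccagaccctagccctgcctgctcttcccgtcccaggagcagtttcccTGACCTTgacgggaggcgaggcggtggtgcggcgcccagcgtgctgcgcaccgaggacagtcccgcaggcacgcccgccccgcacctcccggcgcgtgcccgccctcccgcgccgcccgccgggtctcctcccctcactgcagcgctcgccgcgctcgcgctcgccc
Dcx, downstream one of 2 starts, chrX:143933125-143933374, minus strand: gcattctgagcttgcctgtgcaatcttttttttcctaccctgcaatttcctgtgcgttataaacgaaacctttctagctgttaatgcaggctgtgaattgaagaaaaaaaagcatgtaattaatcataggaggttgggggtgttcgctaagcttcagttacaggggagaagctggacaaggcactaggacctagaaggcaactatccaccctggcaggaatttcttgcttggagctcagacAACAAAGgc
The window of Scn4b held none of the motifs. The window of Syt2 held TGACCTT, the reverse complement of AAGGTCA, the half-site bound by estrogen-related receptors, and that of Dcx held AACAAAG, the core bound by SOX proteins, which begins 9 bases before this start. Promoter windows, which reach past the start, were given for 495 of the genes that rose and 338 of those that fell. AACAAAG was in 6.37% of the 471 windows of genes that fell, 2.9% of the 689 windows of genes that rose, 3.82% of the windows of all expressed genes and 5.85% of all 32851 windows. AAGGTCA was in 1.91%, 4.21%, 3.18% and 4.72% in the same order. The E-box CAGCTG was in 21.9%, 18%, 15.4% and 16.3%, and the E-box CACGTG in 7.01%, 10.4%, 9.62% and 7.15%. The MAF half-element TGCTGA was in 14.4%, 19.3%, 15.4% and 19.5%. The cyclic AMP element TGACGTCA, the POU4F element ATGAATAA and the REST half-element TTCAGCACC were each in at most 3.09% of the windows of any of these 4 sets. These shares are descriptions, with no test, and a match is not a bound site. The window of the other start of Syt2 and of Dcx is not shown, so their matches hold for the printed windows only.

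Among growth factors and their receptors, Fgf1, Fgf12, Fgfr1 and Sorcs1 rose and Fgf11 and Fgf23 fell of 19 expressed neurotrophin and FGF genes. Fgf1 had 14.3, 18.9 and 21.3 at P1 and 159.8, 159 and 186 at P8 (log2 FC 3.25, SE 0.25, adjusted p = 1.2e-06). Fgf12 had 26.9, 35.4 and 35.8 at P1 and 113, 112 and 111 at P8 (log2 FC 1.81, SE 0.26, adjusted p = 2.7e-04). Fgf11 had 44.2, 54.4 and 28.7 at P1 and 21.3, 20.03 and 17 at P8 (log2 FC -1.08, SE 0.31, adjusted p = 0.03). Fgf11 was not called by edgeR's test, without the low-count filter or without any 1 library other than P1 replicate 3, and Fgfr1 and Sorcs1 were not called without replicate 1 of both ages. The mean of Fgfr1 was 11.8 in P8 glia against 4.39 in P8 SGNs. Fgf11 and Fgf12 are intracellular factors that bind sodium channels. The neurotrophin receptors of SGNs were not called. Ntrk2 (TrkB) had 32.5, 27.4 and 26.9 at P1 and 21.1, 23.2 and 24.2 at P8 (adjusted p = 0.13). Ntrk3 (TrkC) had 32.9, 36.9 and 39.2 at P1 and 27.1, 35.2 and 32.3 at P8 (adjusted p = 0.44).

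Of 43 expressed transcription factors of the SGN list none rose and 10 fell, with a median log2 fold change of -0.41. Sox11, a factor of immature neurons, had 33.8, 23.5 and 29.6 at P1 and 6.42, 8.6 and 5.17 at P8 (log2 FC -2.12, SE 0.33, adjusted p = 5.4e-04). Sox4 had 12.3, 5.83 and 7.88 at P1 and 3.58, 1.91 and 1.36 at P8 (log2 FC -1.97, SE 0.43, adjusted p = 0.0073). The exons of Sox4 overlapped another gene over 54.6% of their length. Runx1, a marker of one SGN subtype, had 25.9, 29.3 and 25.6 at P1 and 7.86, 11.5 and 10.7 at P8 (log2 FC -1.44, SE 0.17, adjusted p = 7.3e-05). Ebf3 had 15.1, 12.2 and 9.63 at P1 and 4.58, 4.91 and 4.57 at P8 (log2 FC -1.39, SE 0.28, adjusted p = 0.0039). Casz1, Myt1, Shox2, Pou4f2 and Zfhx3 also fell. Without replicate 1 of both ages 5 factors fell, 4 of them among these 10, and with library size scaling 15. Quality weights called 3 rises, and the 6 libraries alone, the replicate block, DESeq2 and leaving out P1 replicate 3 or P8 replicate 1 called 1 each. Gata3, which specifies the auditory lineage, was lower in every P8 library but did not pass the test (30.7, 28 and 20.7 at P1 and 18.1, 15.6 and 11.9 at P8, adjusted p = 0.074). Prox1 (66.3, 79 and 51.4 at P1 and 44.9, 57.3 and 50.2 at P8, adjusted p = 0.32), Scrt2 (57.3, 49.9 and 35 at P1 and 55.9, 31.6 and 47.9 at P8, adjusted p = 0.85) and Esrrg (88, 107 and 82.1 at P1 and 80.4, 90.9 and 104 at P8, adjusted p = 0.98) were not called either. Of 21 subtype markers, Grm8 rose and Runx1 and Tle4 fell. Grm8 was not called by edgeR's test, with library size scaling, without the low-count filter or without any 1 library other than P8 replicate 2. Calb2, a marker of another subtype, passed the adjusted p with a change just under 2-fold (102, 125 and 116 at P1 and 186, 253 and 236 at P8, log2 FC 0.97, SE 0.25, adjusted p = 0.017).

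Of 30 RNA-binding and splicing regulators, Celf3, Celf5, Igf2bp1 and Igf2bp2 fell and Mbnl2 rose. The 4 falls became 2 with edgeR's test (Celf3 and Igf2bp1), 2 without P1 replicate 1, P8 replicate 2 or P8 replicate 3 (Celf3 and Celf5) and 7 with library size scaling. Mbnl2 was not called without P1 replicate 1 or with library size scaling. Celf3 had 19.6, 16.9 and 16.5 at P1 and 2.94, 4.17 and 4.21 at P8 (log2 FC -2.26, SE 0.25, adjusted p = 3.6e-05). Mbnl2 had 35.2, 58.2 and 44 at P1 and 83.1, 103 and 103 at P8 (log2 FC 1.11, SE 0.17, adjusted p = 4.3e-04), and Celf4 with 17.1, 17.4 and 24.2 at P1 and 41.2, 33.1 and 32.5 at P8 was not called (adjusted p = 0.11). Igf2bp1, an oncofetal RNA-binding protein, went from 462, 62 and 80 counts at P1 to 18, 0 and 0 at P8, with the highest count of each age in replicate 1, the libraries with RNA of other tissues. Of 22 cell cycle genes, the inhibitors Cdkn1a and Cdkn1c fell and the inhibitor Cdkn1b rose, and Mcm6, a replication helicase subunit, fell. Cdkn1a had 96.5, 139.9 and 80.7 at P1 and 23.7, 11.3 and 17.3 at P8. Cdkn1b had 12.1, 20.2 and 12.6 at P1 and 28.1, 29.8 and 33.6 at P8. Of these calls, edgeR's test made those of Cdkn1b and Cdkn1c, and Cdkn1b was not called without P1 replicate 1, P1 replicate 3 or P8 replicate 3, or with library size scaling. Npas4, an activity-dependent factor, had 4.66, 6.49 and 8.1 at P1 and 0.104, 0.609 and 2.14 at P8 (log2 FC -3.65, SE 0.85, adjusted p = 0.011) and fell, while Egr2, which myelinating Schwann cells express, was the one other call among 23 immediate early genes. Npas4 was not called by edgeR's test, without P8 replicate 1 or without replicate 1 of both ages, and Egr2 without P1 replicate 1 or without replicate 1 of both ages.

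Of 22 glycolytic genes, 6 rose and 1 fell, with a median log2 fold change of 0.69, and the 6 rises were 5 to 7 under every alternative. The neuronal enolase Eno2 had 70.2, 98.1 and 94.2 at P1 and 178, 289 and 247 at P8 (log2 FC 1.44, SE 0.17, adjusted p = 5.9e-05). The aldolase Aldoa had 71.1, 82.6 and 95.7 at P1 and 167, 211 and 189 at P8. Aldoc had 7.51, 11.6 and 12.9 at P1 and 27.1, 36.9 and 34.6 at P8, with log2 fold changes of 1.20 for Aldoa and 1.69 for Aldoc. The phosphofructokinase Pfkm had 18.5, 15.2 and 26.8 at P1 and 42.7, 70.6 and 63.6 at P8 (log2 FC 1.56, SE 0.27, adjusted p = 0.0016). Pfkp was the member that fell. Ldhb had 179, 242 and 186 at P1 and 445, 539 and 441 at P8 (log2 FC 1.25, SE 0.24, adjusted p = 0.0025), and Slc16a1, a monocarboxylate transporter, rose as well (1.53). Of 96 nuclear genes of oxidative phosphorylation 1 passed both thresholds, Sdha with 46.7, 65.7 and 67.3 at P1 and 94.5, 153 and 149 at P8 (log2 FC 1.14, SE 0.21, adjusted p = 0.0019). The median of these 96 genes was 0.56 and all 3 P8 libraries lay above all 3 P1 libraries for 58 of them and below for 0, against 18% and 16.5% of all genes. Of 84 cytosolic ribosomal protein genes 1 passed both thresholds, Rps26, with a median of -0.51 for the group, and the P8 libraries lay wholly below the P1 libraries for 30 genes and above for 1, against the same shares. Under library size scaling the medians of all genes shift by -0.22, and none of the 96 and 5 of the 84 were called. Without P8 replicate 1, 5 of the 96 rose and 3 of the 84 fell, and without P1 replicate 1 or P8 replicate 2 none of either group was called. The 13 protein-coding genes of the mitochondrial genome took 1.92% ± 0.198 of the counts at P1 and 2.27% ± 0.142 at P8 (mean ± SD, n = 3 per age), a difference of 0.345 percentage points. The ages did not overlap, and the two-sided exact permutation test gave p = 0.1, the smallest that 3 against 3 allows.

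**Figure D4:**
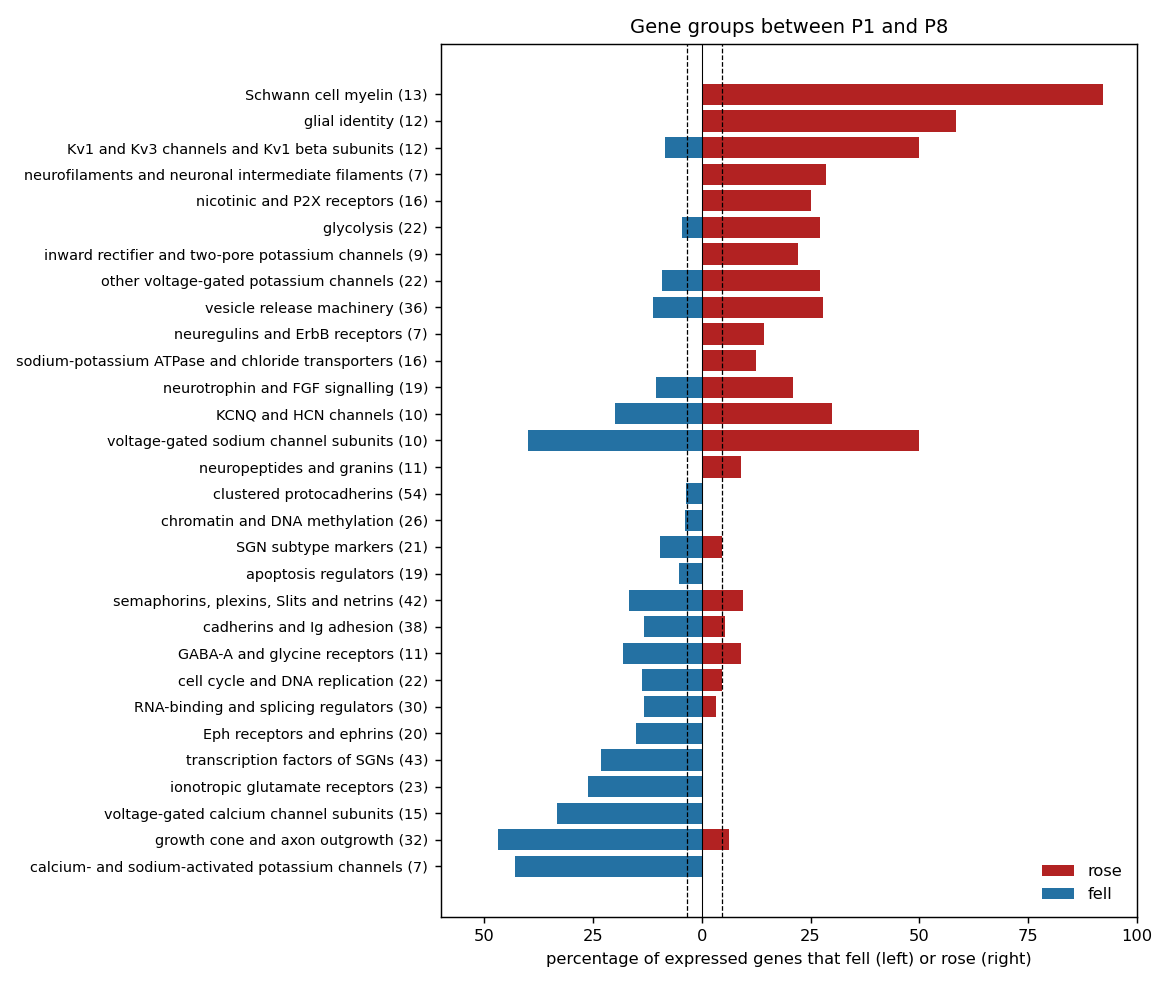
Percentage of the expressed genes of 30 gene groups that rose (red, to the right) or fell (blue, to the left) between P1 and P8, with the number of expressed genes beside each name. The groups are those of at least 7 genes with the largest excess of rises (15 groups) or of falls (15 groups). Dashed lines mark the shares over all 13944 genes, 4.6% for rises and 3.38% for falls. Schwann cell myelin and glial identity reach furthest to the right, and growth cone and axon outgrowth furthest to the left.

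Of 13 expressed genes of Schwann cell myelin 12 rose and none fell, and of 12 glial identity genes 7 rose and none fell. The myelin gene Pmp22 had 18.3, 48.7 and 10.2 at P1 and 446, 179 and 294 at P8 (log2 FC 3.78, SE 0.82, adjusted p = 0.0065). Mbp, which encodes myelin basic protein, had 3.85, 11.2 and 2.48 at P1 and 66.9, 43.2 and 52.2 at P8 (log2 FC 3.50, SE 0.47, adjusted p = 1.7e-04) and a mean of 279 ± 91.2 in P8 glia (SD, n = 3). Prx had 0.741, 2.47 and 1.53 at P1 and 18.3, 17.9 and 20.8 at P8 (log2 FC 3.84, SE 0.55, adjusted p = 3.0e-04). Among the identity genes, Sox10, which was checked by qPCR before sequencing, had 1.01, 1.51 and 1.12 at P1 and 18.4, 6.01 and 8.34 at P8 (log2 FC 3.07, SE 0.77, adjusted p = 0.015) against 174 ± 59.8 in glia. Foxd3 had 0.0494, 0.274 and 0.33 at P1 and 1.22, 0.802 and 2.81 at P8 (adjusted p = 0.091). Erbb3 had 1.1, 1.23 and 1.86 at P1 and 4.79, 1.91 and 4.33 at P8 (adjusted p = 0.12). S100b, in contrast, was higher in P8 SGNs (116 ± 21.2) than in P8 glia (18.3 ± 9.91), and Ugt8a stood at 18.2 ± 2.17 and 30.3 ± 1.75. The summed level of the 17 myelin markers was 68.7, 173 and 81.1 at P1, 1251, 800.3 and 954 at P8 and 8258 on average in glia. That of the 15 identity markers was 79, 58.8 and 47.9, 387, 235 and 311 and 1780.2 in the same order. This identity sum includes S100b, the gene higher in SGNs than in glia, with 44.6, 33.2 and 32.4 at P1. At P8 its part of the sum was 108, 101 and 141. On the TPM scale the myelin sum was 7.28 times as high at P8 as at P1, and for both lists the two-sided exact permutation test gave p = 0.1, the smallest possible. Without replicate 1 of both ages 6 of the 12 myelin and 4 of the 7 identity genes were still called. In bulk samples a change in the number of glial cells picked and a change in RNA per cell cannot be told apart, and the part of glial RNA in the other rises was not tested. Genes with a mean TPM in P8 glia over 5 times that in P8 SGNs made up 56 of the 642 rises, 49 of the 471 falls and 841 of all 13944 genes, and refitting without them gave 579 rises and 450 falls. This filter uses the P8 SGN level itself, so glial RNA in the P8 libraries can keep a gene from being removed. It also rests on TPM, on which the mean myelin sum was 1460 in P8 SGNs and 9325 in glia. In normalised RPKM these means were 1002 and 8258, a larger ratio, so a filter on that scale could remove more genes. After the TPM filter 5 Schwann cell myelin and 3 glial identity genes still rose.

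**Figure D5:**
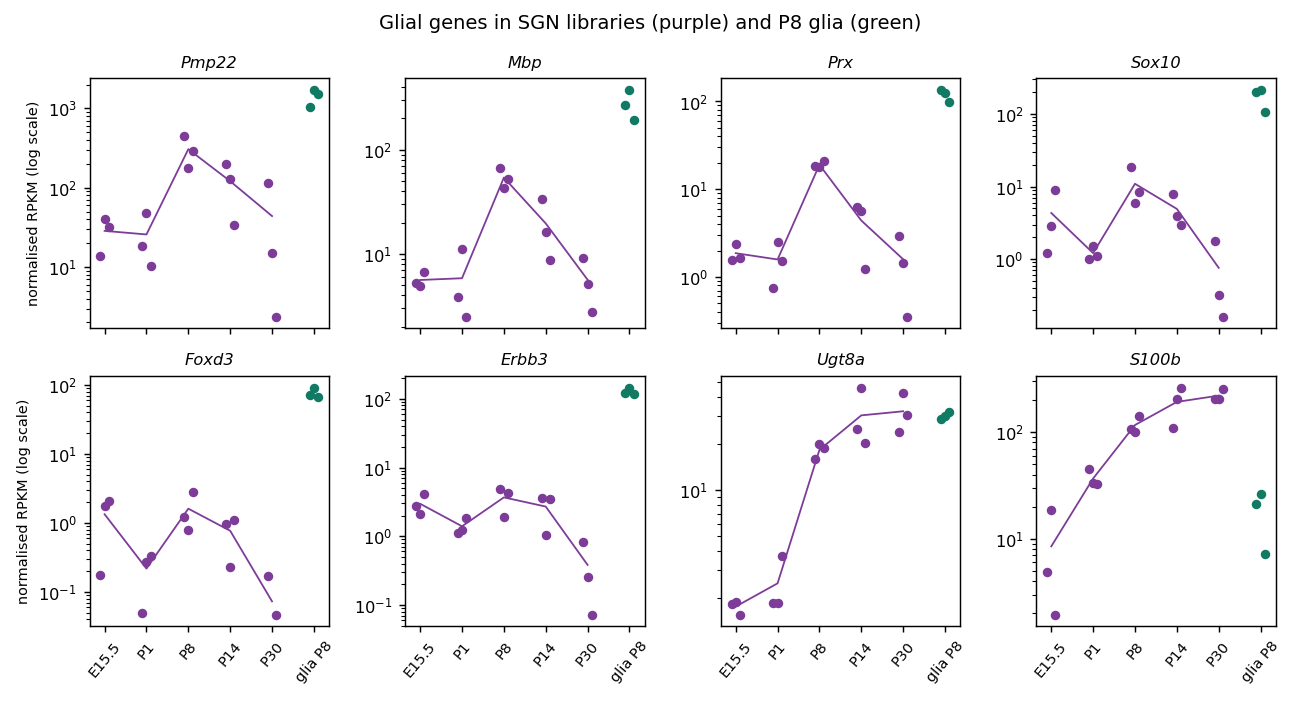
Normalised RPKM (vertical axis, log scale) of 8 glial genes in each SGN library of the 5 ages and in each library of P8 glia, with lines through the means of the SGN ages, and 1 P30 library at 0 for Foxd3 not drawn. Mbp rises from between 2.48 and 11.2 at P1 to between 43.2 and 66.9 at P8 and stays under the lowest glial library, while S100b lies higher in P8 SGNs than in glia.

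None of 24 expressed HC markers, 4 microglial, 10 connective tissue or 8 supporting cell markers was called by limma-voom, against 2, 1, 0 and 1 with an unadjusted p under 0.05, and edgeR's test called none of them, while DESeq2 called 1 HC marker. A single HC marker was also called without P1 replicate 2 and without P8 replicate 1, 1 microglial marker without P1 replicate 3 and 1 supporting cell marker with the replicate block. Myo6 had 11.8, 18.5 and 13.4 at P1 and 12.6, 11 and 13.8 at P8 (adjusted p = 0.72). The summed level of the 25 HC markers was 441, 587 and 403 at P1 and 586, 505 and 557 at P8, so that the ages overlapped. Its mean in HCs was 2557, and no marker of the list was at 0 in all 6 libraries. The list includes Calb2, described above as a marker of an SGN subtype that rose by just under 2-fold. The sum is therefore not a measure of HC RNA alone. The part of HC RNA in the other changes was not tested. No endothelial and 1 blood cell marker passed 1 CPM in all libraries of an age. The 9 SGN markers were all among the expressed genes, with Snap25, Slc17a6 and Slc17a7 rising and 1 marker falling.

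The same genes were compared between E15.5 and P30, whose libraries entered the estimate of the spread behind the P1 to P8 calls but not the fold changes. A fit of the 6 P1 and P8 libraries alone gave 723 rises and 607 falls. Between E15.5 and P30, 481 of the 642 genes that rose were called higher and 9 lower, against 18.9% higher and 15% lower among all 13944 genes. Of the 471 genes that fell, 357 were called lower at P30 and 0 higher. The 9 exceptions were lower at P30 than at E15.5 although they rose between P1 and P8, namely Adamts20, Ctnnal1, Emid1, Fgfr1, Fzd3, Gm35876, Npas3, Serpine2 and Shc4. All of them except Gm35876 had a higher mean in P8 glia than in P8 SGNs, such as Adamts20 with 61.9 against 3.63. The part of glial RNA in their rise was not tested. In the last interval, from P14 to P30, 9 of the 13944 genes (0.0645%) were called, 3 of them among the 642 and none among the 471. The difference between the P1 to P8 step and the P14 to P30 step, tested in the same limma-voom fit, was called for 392 genes (2.81%), 323 positive and 69 negative (2.32% and 0.495%). It was positive for 280 of the genes that rose, Hapln4 (5.80 on the log2 scale, adjusted p = 3.7e-06), Scn4b (4.86 on the log2 scale, adjusted p = 5.0e-05) and Vamp1 (3.01 on the log2 scale, adjusted p = 1.9e-04) among them, and negative for 48 of those that fell, such as Dcx (-4.03 on the log2 scale, adjusted p = 5.0e-05) and Efnb3 (-6.18 on the log2 scale, adjusted p = 0.02). This count shares the P1 and P8 libraries with the choice of genes, so the sign of these differences is partly given by it. All 12 myelin genes that rose were among the 280.

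Relative to P1, the median log2 level of the 642 genes was -0.47 at E15.5, 1.53 at P8, 1.69 at P14 and 1.75 at P30. That of the 471 genes was 0.08, -1.61, -2.13 and -2.25, with 0.1 added to each level. The P1 and P8 entries are fixed by the choice of genes and carry no test. The myelin gene Mbp was at 54.1 ± 12 at P8, 19.6 ± 13 at P14 and 5.66 ± 3.17 at P30 (mean ± SD, n = 3), whereas Hapln4 went from 45.8 ± 6.01 to 115 ± 7.77 and 109.6 ± 14. Fgf1 and Snap25 went on to 470.0 ± 102 and 1969 ± 241 at P30, and Gap43 and Dcx to 10.6 ± 13.4 and 2.08 ± 0.443.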

How the data were processed

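RNA of hand-picked SGNs was amplified (Ovation RNA-Seq V2) and sequenced as paired ends. Per the labels and methods the authors mapped reads to mm10 with STAR 2.4.0i and deposited whole-number counts per gene of GENCODE vM15 from featureCounts. The strand, multimapping and read-pair settings of the counting are not given in the sources used here, so reads of overlapping genes cannot be told apart, and their share of exon length is given beside a gene. The deposited table also holds each gene's exon length in bases, which was used for normalised RPKM and TPM. The columns of P14 and P30 SGNs, glia and HCs come from the same table. Symbols were matched to 52403 of 52550 gene IDs with GENCODE M21.

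The test was limma-voom (limma 3.58.1, edgeR 4.0.16, R 4.3.3) on TMM-scaled counts of all 15 SGN libraries, which share one estimate of the spread, over 15113 genes with over 1 CPM in all 3 libraries of any SGN age. Contrasts were two-sided with BH adjustment over these 15113 genes, and counts are given over the 13944 genes expressed at P1 or P8. Single sums and shares were compared by exact permutation over libraries (scipy 1.17.1). Alternatives were edgeR's quasi-likelihood test, DESeq2 1.42.0, other scalings, filters and weights, a replicate block, and leaving out libraries. Leaving out replicate 1 of both ages, TPM in place of normalised RPKM for overlap, and normalised RPKM for marker sums were added after the data were seen. The scripts were tested on simulated counts with 50 genes changed by each fold between P1 and P8. The limma-voom test recovered 4 of 50 at 2-fold, which is the threshold itself, 24 at 4-fold, 38 at 8-fold and 37 at 16-fold. It made 3 false calls among the unchanged genes. A gene that was not called is therefore not shown to be unchanged.

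The genes and gene lists were chosen with earlier results of these data known. Named genes were the 12 largest rises and falls over 10 CPM without overlap, the 10 largest TPM differences in each direction, up to 6 called genes of each list with members that complete a pair or define it, marker genes, and Scrt2, Celf4, Hcn3, Kcnq3, Kcnt1 and Cacna1d. Results for some genes are not reported here. Further called genes of a list were named after their values were seen.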

Additional observations from a re-analysis of the deposited data

Results flagged for a closer look

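The change from P1 to P8 differed from the change from P14 to P30 for 392 of the 13944 genes, tested as a difference of both steps in the limma-voom fit with BH adjusted p under 0.05 and over 2-fold. A positive value means that the log2 change was higher in the P1 to P8 step than in the P14 to P30 step. It can reflect a rise in the earlier step, a fall in the later step, or both. The values below are these differences on the log2 scale for the genes named in the text. Erbb3, for example, was not called between P1 and P8. It had 3.63, 1.05 and 3.43 at P14 and 0.82, 0.256 and 0.0717 at P30.

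The difference was positive for Hepacam 7.28, Gpr37l1 6.93, Emid1 6.73, Slc9a3 6.39, Sox10 6.26, Pmp22 6.16, P2rx7 5.98, Hapln4 5.80, Prx 5.42, Mbp 5.24, Serpine2 5.18 and Col19a1 5.14. It was also positive for Mapkapk3 4.95, Egr2 4.91, Scn4b 4.86, Adamts20 4.83, Sema5a 4.76, Ccbe1 4.50, Bcan 4.48, Erbb3 4.47, Hapln1 4.38, Sema3b 4.31, Gldn 4.04 and Slit3 3.83. It was also positive for P2rx6 3.35, Syt12 3.28, Vamp1 3.01, Ugt8a 2.94, Kcnip1 2.75, Fgf1 2.46, Nefh 2.37, Scn2b 2.36, Kcnk1 2.20, Slc17a7 2.19, Kcnk9 2.15 and Kcna1 2.09. It was also positive for Ctnnal1 2.04, Kcnab2 2.02, Grm8 1.93, Kcna2 1.89, Vsnl1 1.78, Eno2 1.78, Syt2 1.77, Aldoc 1.74, Glrb 1.73, Nsf 1.68, Syt3 1.67 and Sema7a 1.66. It was also positive for Pfkm 1.54, Scn1a 1.52, Atp1b1 1.51, Cdkn1b 1.48, Fgfr1 1.48, Calb2 1.43, Ldhb 1.42, Nrn1 1.39, Nefl 1.36, Cplx1 1.28, Scn8a 1.26 and Snap25 1.25. It was also positive for Sdha 1.21, Grin1 1.08 and Mbnl2 1.07.

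The difference was negative for Fgf23 -9.41, Zfp57 -7.07, Efnb3 -6.18, Gabrb1 -4.58, Dcx -4.03, Chl1 -3.56, Celf3 -2.87, Fgf11 -2.44, Stmn1 -2.36, Scn9a -2.27, Kcnmb2 -2.16 and Scn3a -2.03. It was also negative for Cplx2 -1.94, Hcn3 -1.89, Ncam1 -1.71, Aplp1 -1.24, Eid1 -1.21 and Dpysl3 -1.09.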

How the results depend on the processing

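The 1113 calls between P1 and P8 became 639 with edgeR's quasi-likelihood test (406 higher, 233 lower), and library size scaling gave 418 higher and 755 lower, which moved the share of higher calls from 57.7% to 35.6%. Leaving out 1 library gave between 631 and 973 calls, from 337 to 607 higher and from 266 to 438 lower, with the lowest total without P1 replicate 1 and the fewest falls without P8 replicate 2 (266) and replicate 3 (274). Without replicate 1 of both ages 478 calls were left, 288 higher and 190 lower. None of the 1113 called genes changed sign under any setting that fitted it. The 392 genes whose step differed became 225 with edgeR's test, 691 with quality weights, between 206 (without P1 replicate 1) and 383 without 1 library (247 without P8 replicate 3), and 218 without replicate 1 of both ages. Where libraries were left out fewer samples were fitted, and for the other settings the cause was not tested. Of the 209 genes named, 67 lost their call with edgeR's test, 26 with DESeq2, 14 with library size scaling and 76 without replicate 1 of both ages. The 209 include genes that limma-voom did not call and that had no call to lose.

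Samples of P1 and P8 with the same replicate number deviated together with r = 0.337, 0.046 and 0.12, so the numbers were not taken to pair the samples, and not every library correlated best with its own number. With the replicate number as a block the pairing fit called 1257 genes, 726 higher and 531 lower, and 539 for the difference between steps. With rRNA and tRNA genes included the rise of the mitochondrial share was 3.38 percentage points. The P8 minus P1 difference of the summed HC markers, Calb2 included, was 72.8 on the normalised RPKM scale. That of the blood markers was 1.32. Both differences were negative on the TPM scale. The exact permutation p was between 0.4 and 0.8 on both scales, where 3 against 3 cannot go below 0.1. With TPM levels 2986 genes lay wholly above or below at P8, against 4810 with normalised RPKM. The depth limits genes near 1 CPM, where a group can hold libraries with 0 counts.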

Other observations

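Among 24 calcium buffers and sensors 3 rose and 2 fell. Vsnl1 and S100b are described above, and Cabp1, a calmodulin-like regulator of calcium channels, had 4.21, 4.04 and 3.05 at P1 and 6.25, 9.53 and 11.9 at P8 (log2 FC 1.22, SE 0.29, adjusted p = 0.012). Hpca (hippocalcin) had 14.4, 16 and 15.2 at P1 and 1.76, 2.52 and 2.51 at P8 (log2 FC -2.77, SE 0.47, adjusted p = 0.0012) and the kinase Camk4 had 108, 103 and 83.9 at P1 and 38.7, 47.1 and 37.8 at P8 (log2 FC -1.26, SE 0.19, adjusted p = 4.3e-04). Of 11 neuropeptide and granin genes the prohormone convertase Pcsk2 rose, with 7.69, 7.41 and 9.77 at P1 and 14.3, 22.4 and 22.5 at P8 (log2 FC 1.23, SE 0.22, adjusted p = 0.0019), and none fell. Of 7 neuregulin and ErbB receptor genes Erbb4 rose, with 0.0465, 0.0386 and 0.0138 at P1 and 0.494, 0.377 and 0.276 at P8 (log2 FC 3.58, SE 0.99, adjusted p = 0.028), a call that edgeR's test did not make.

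Of 25 genes of cholesterol synthesis Insig1 and Msmo1 rose and none fell, with a median log2 fold change of 0.05 over the group, and edgeR's test called neither. Of 30 collagen genes Col14a1 and Col19a1 rose and Col23a1 and Col26a1 fell. The test of edgeR called Col19a1 alone, leaving out P1 replicate 3 left neither rise, and without the genes high in glia neither fall was left. Of 26 chromatin genes Hmgn2 fell, with 23.3, 11.9 and 13.9 at P1 and 7.14, 8.52 and 7.04 at P8 (log2 FC -1.09, SE 0.28, adjusted p = 0.02), which edgeR's test did not call.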
